A study of Drosophila melanogaster with 10 samples.

Results

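The genes described encode the subunits of the proteasome, measured in the wing imaginal disc of Drosophila melanogaster, the larval tissue from which the adult wing develops. They were chosen by symbol, as the rows whose name begins with Prosalpha, Prosbeta, Rpn or Rpt followed by a digit, and 48 of the 13041 genes of the table met that rule. Of these, 35 had a value of at least 10 in at least 2 libraries and are the members followed here: 13 core subunits, 18 cap subunits and 4 paralogs. The other 13 rows lay below that level: 11 paralogs and 2 rows that both carry the symbol Prosalpha1. Total RNA depleted of ribosomal RNA was sequenced from discs of yw larvae with 2 libraries (A and B) at each of 5 ages of the last larval instar, counted from the L2 to L3 molt: 6, 15, 25, 35 and 48 h. Larvae were wandering at 48 h, every group had the same genotype, and no treatment was given. The molecule is labelled as polyA RNA, while the protocol describes ribosomal RNA depletion.

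The 26S proteasome degrades proteins that carry ubiquitin chains. Its core is a barrel of stacked alpha and beta rings with the protease sites inside, and its cap has a base, whose Rpt ATPases unfold the substrate and feed it into the barrel, and a lid, which removes the ubiquitin chain. In growing tissue such as the disc it turns over cell cycle regulators, signalling components and misfolded proteins, and in the Drosophila testis some core subunits are replaced by paralogs.

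The values are a signal, meaning reads per gene scaled by the authors with a size factor for each library. Depth was 16814685 to 38003104 recovered reads. By the authors' size factors a single read stood for 0.596 to 1.40 signal, and this did not follow depth alone. The largest value was that of 25 h A, while the shallowest library, 35 h A, had 1.34. All 8 genes of a wing disc list (vg, nub, rn, ap, wg, sd, Doc2, hh) had reads in every library, together 0.0617% to 0.203% of the reads. Fat body genes took 15.8% and 8.73% of the reads in 25 h A and B, against 0.201% to 1.79% in the other libraries. Gut enzyme genes took 1.11% in 15 h A and 0.0298% in 15 h B. The labels do not say that A and B came from separate cultures, so p-values measure only the spread between these libraries.

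The core subunits were the most abundant members per length of exon. Averaged over the 10 libraries, signal per kb of exon ranged from 3693 to 5931 among the 13 core subunits (median 4852). Among the 18 cap subunits it ranged from 1869 to 3587 (median 2741), so that the classes did not overlap on this average. In single libraries they could overlap: in both 48 h libraries Prosbeta7 lay below Rpt2 per kb. The median over all tested genes with an exon length was 306 per kb, and each of the 31 numbered subunits lay above it. No test was made of this difference between classes.

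Within the alpha ring, which gates the entrance of the barrel, levels per kb lay within 4852 (Prosalpha4) and 5931 (Prosalpha2), a coefficient of variation of 7.09% between its 6 genes. The beta ring, which carries the protease sites, was wider, with a coefficient of variation of 16.1% between its 7 genes. Its catalytic members had 4438 per kb for Prosbeta1 (caspase-like site), 3694 per kb for Prosbeta2 (trypsin-like site) and 4730.3 per kb for Prosbeta5 (chymotrypsin-like site), and its highest member was Prosbeta3 with 5816 per kb. None of the catalytic genes was the highest of its ring.

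The ATPases of the base ranged from 2336 per kb for Rpt6 to 3587 per kb for Rpt2. Of the ubiquitin receptors, Rpn10 had 3123 per kb, Rpn1 had 2371 per kb and Rpn13, the lowest of all 31 subunits, had 1869 per kb. The lid deubiquitinase Rpn11 had 3180.4 per kb, within the lid range of 2389 (Rpn3) to 3377 (Rpn5). The order of the 31 subunits per kb was alike in every library: Spearman's rho between pairs of libraries was 0.927 to 0.994 over 45 pairs, a description in which the genes' lengths and base composition are shared.

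**Figure D1:**
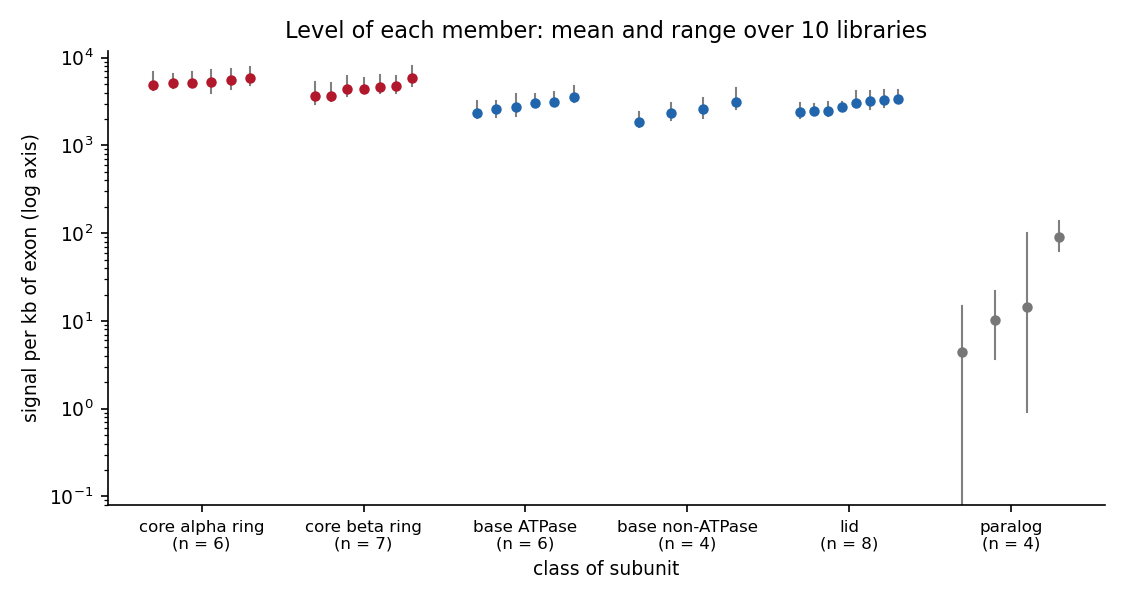
Signal per kb of exon (log axis) of the 35 members, by class; points are means over 10 libraries, lines run from the lowest to the highest library, and a line that reaches the axis includes a library at 0. By these means the 13 core subunits (3693 to 5931) lie above the 18 cap subunits (1869 to 3587), and the 4 paralogs lie between 4.44 and 89.97. In single libraries core and cap can overlap, as for Prosbeta7 and Rpt2.

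Prosalpha1, the remaining alpha ring subunit, was listed near 0 at both of its rows. The gene at chromosome 2R, 7827303 to 7828678 on the minus strand (FBgn0263121), had 20 reads over the 10 libraries. The gene at 2R, 7830413 to 7831771 on the minus strand (FBgn0050382), which the annotation names Prosalpha1R, had 52 reads and reached 12.8 only in 15 h A. These genes are neighbouring paralogs, and whether reads that match both were counted is not stated, so the values are uncertain and no level of Prosalpha1 is given. Just inside the filter were Rpt4R (16.3 and 20.0 at 6 h, 22.5 in 25 h A) and Rpn13R, whose values of at least 10 ran from 10.0 to 24.0.

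The subunits varied less over the libraries than the median tested gene, which had a lower level. Their coefficient of variation over the 10 libraries was 5.90% (Rpn9) to 19.5% (Prosalpha5), with a median of 13.5%, against a median of 29.7% over all tested genes. Without 15 h A these medians were 7.87% and 26.3%. The comparison was not matched for level: all 31 subunits lay above the all-gene median of 306 per kb, and genes with few reads vary more by counting alone.

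Summed over the 31 subunits, signal was 150056 and 154761 at 6 h (A and B), 196463 and 159055 at 15 h, and 148415 and 139920 at 25 h. It was 135574 and 130289 at 35 h, then 139807 and 134584 at 48 h. The library 15 h A stood above every other: each of the 31 subunits had its highest signal there. The lowest library was a 35 h library for 22 subunits, a 48 h library for 7 and a 25 h library for 2.

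As a share of all reads the picture differed. The 31 subunits took 0.565% and 0.522% of reads at 6 h, 0.546% and 0.609% at 15 h, 0.446% and 0.536% at 25 h, 0.601% and 0.592% at 35 h, then 0.618% and 0.594% at 48 h. On this scale none of the 31 subunits was highest in 15 h A.

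**Figure D2:**
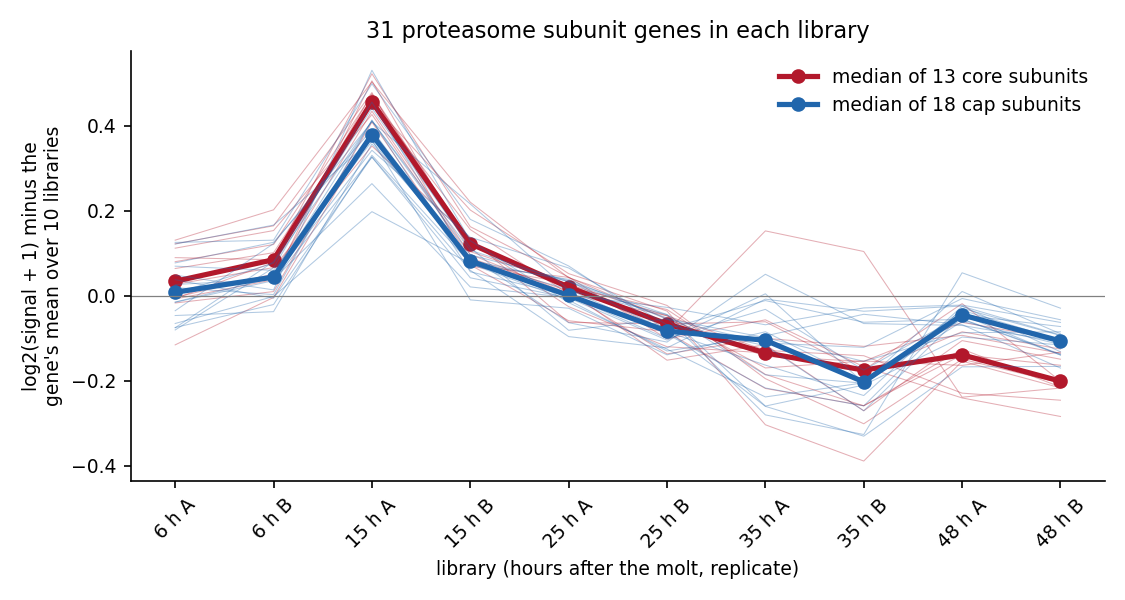
Log2(signal + 1) of each of the 31 numbered subunits minus its own mean over the 10 libraries, by library; thin lines are genes, and thick lines are the medians of 13 core and 18 cap subunits. All 31 genes peak in 15 h A, and the core median lies below the cap median in 35 h A and in both 48 h libraries.

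Over the whole instar the summed signal of the core and that of the cap were lower in both 48 h libraries than in both 6 h libraries on the authors' scale. Summed core signal was 56497 and 54832 at 48 h, against 64019 and 66256 at 6 h. Summed cap signal was 83309 and 79752 at 48 h, against 86038 and 88505 at 6 h. The difference between the classes was not tested. Fewer cells of a type and less RNA per cell cannot be told apart in such bulk samples. The test was limma on log2(signal + 1), with 1 spread per gene shared over the 5 times and Benjamini-Hochberg adjustment over the 10453 tested genes at a threshold of 0.05.

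Markers of other cell types moved with this comparison. The 2 muscle genes found of 6 listed took 0.0223% and 0.0160% of reads at 48 h, against 0.497% and 0.625% at 6 h. The 6 haemocyte genes took 0.0462% and 0.0590% at 48 h, against 0.468% and 0.643% at 6 h, and the 9 gut enzyme genes found of 11 took 0.00113% and 0.00105%, against 0.669% and 0.204%. The 8 wing disc genes took 0.194% and 0.203% at 48 h, against 0.0836% and 0.0746% at 6 h. Each of these genes had reads in all 4 libraries, and the part of these cell types in the subunit values was not tested.

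Of the 35 members, 3 passed the threshold at 48 h against 6 h and all 3 were lower (49.1% of all tested genes passed, 26.8% lower and 22.3% higher), a smaller share than the background. They were Prosalpha5, Prosbeta6 and the paralog Rpt4R, and 6 members had an unadjusted p under 0.05. Rpt4R reached the filter only in 6 h A and B and 25 h A. Its call thus had to be a lower one. edgeR's quasi-likelihood test on the recovered reads called 2 (Prosalpha5 and Rpt4R), beside 47.5% of all tested genes, and DESeq2 called 4, beside 55.3%.

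Prosalpha5, an alpha ring subunit (FBgn0016697; 2R, 17412767 to 17413769, plus strand), had a signal of 4381 and 4194 at 48 h, against 5338 and 5609 at 6 h. The groups did not overlap. Its log2 change was -0.35 (SE 0.10), with an adjusted p of 0.0300 from limma. Prosbeta6, a beta ring subunit without a protease site (FBgn0002284; 3L, 16609400 to 16610418, minus strand), had 3742 and 3699 at 48 h, against 4669 and 4653 at 6 h. These groups did not overlap either, and the log2 change was -0.33 (SE 0.10), with an adjusted p of 0.0357 from limma. Leaving out any 1 of the 6 h or 48 h libraries ended all 3 calls, and leaving out either 35 h library left 1.

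The median log2 change at 48 h against 6 h was -0.26 over the 13 core subunits and -0.10 over the 18 cap subunits, beside -0.10 over all tested genes. Of the 31 subunits, 30 had a negative value and 26 had both 48 h libraries below both 6 h libraries. The shares of all tested genes that did so are not given, so these counts have no background beside them. The exception in sign was Rpn5, a lid scaffold subunit, with a log2 change of 0.02 (SE 0.10).

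**Figure D3:**
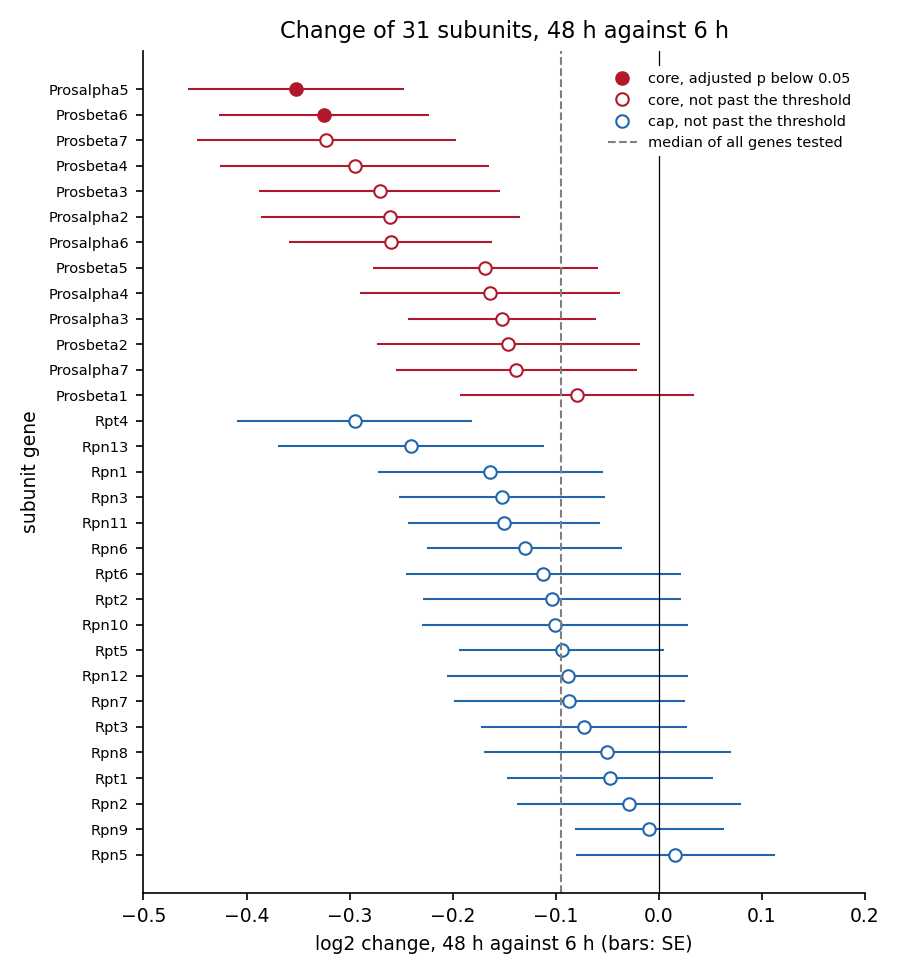
Log2 change of each of the 31 numbered subunits at 48 h against 6 h with its SE (limma), core above cap; filled points passed the threshold, and the dashed line is the median of all genes tested. Prosalpha5 and Prosbeta6 are filled, and 12 of the 13 core subunits lie left of the dashed line.

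The catalytic genes had log2 changes nearer to 0 than the other members of their ring. Prosbeta1 averaged 3549 ± 69.9 at 48 h and 3749 ± 49.6 at 6 h (SD, n = 2 each), a log2 change of -0.08. Prosbeta2 averaged 3515 ± 314 at 48 h and 3883 ± 161 at 6 h, a log2 change of -0.15. Prosbeta5 averaged 4564 ± 48.0 at 48 h and 5132 ± 281 at 6 h, a log2 change of -0.17. None of the 3 passed the threshold (adjusted p 0.581, 0.365 and 0.232, limma).

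Among the cap subunits none passed it. Of the ATPases, Rpt4 had the lowest value, with 3528 and 3530.1 at 48 h, against 4322 and 4338 at 6 h, a log2 change of -0.30 (SE 0.11, adjusted p 0.0682, limma). The log2 changes of Rpt1, Rpt2, Rpt3, Rpt5 and Rpt6 lay within -0.11 and -0.05. The receptor Rpn13 had 2989 and 2822 at 48 h, against 3378 and 3484 at 6 h, a log2 change of -0.24 (adjusted p 0.159, limma). For the receptors Rpn1 and Rpn10 the log2 changes were -0.16 and -0.10, and for the deubiquitinase Rpn11 it was -0.15.

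The calls at 48 h against 6 h changed when 15 h libraries were left out. These libraries enter the shared spread, but the cause of the change was not tested. Between 15 h A and 15 h B the 31 subunits differed by a median of 0.32 on the log2 scale (0.12 to 0.41). Signal was higher in A for 31 of 31, while the median differences at the other times lay between -0.045 and 0.094. Without 15 h A, without 15 h B and without both, limma called 16 members lower at 48 h against 6 h in each case (37.7%, 37.8% and 37.7% of all tested genes were called lower). Without both they were 10 of the 13 core subunits, all but Prosalpha7, Prosbeta1 and Prosbeta2, the cap subunits Rpn1, Rpn3, Rpn13 and Rpt4, and the paralogs Rpt4R and Rpt6R. Without the 15 h libraries Rpt6R reached the filter only in 6 h A and B, the group in which it is high, so that its call had to be a lower one. The same held for Rpt4R, which reached the filter only there and in 25 h A. In that fit Prosbeta6 had an adjusted p of 0.000560 and Prosalpha5 one of 0.00163 (limma).

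The direction depends on how the libraries are scaled. The median log2 change of all tested genes was -0.10 on the authors' scale, 0.23 with libraries set to a common median, 0.21 with scaling by total reads and 0.33 with quantile normalization. The median of the 31 subunits was 0.17 with a common median and 0.16 by total reads, and 28 of the 31 were then positive. With quantile normalization it was -0.03, with 10 of 31 positive. With a common median limma called 3 members, 2 of them higher (Rpn2 and Rpn5, log2 changes 0.29 and 0.34) and Rpt4R lower, the only direction open to it. Beside these, 29.9% of all tested genes were called higher and 20.9% lower. The core median minus that of all genes was -0.16 on the authors' scale and -0.45 with quantile normalization. Scalings by 1 factor per library leave this difference nearly the same by construction.

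From 6 h to 15 h no member was called by limma (4.22% of all tested genes were), and 6 had an unadjusted p under 0.05. edgeR and DESeq2 also called 0. All 31 subunits had a positive log2 change, with a median of 0.22 beside 0.05 over all tested genes. Both 15 h libraries lay above both 6 h libraries for 26 of them, and the share of all tested genes is not given. The largest values were 0.30 for the receptor Rpn10 and 0.29 for Prosbeta5, and the smallest were 0.03 for Rpn13 and 0.13 for Prosalpha2.

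That value turned on 15 h A. Without 15 h B, 28 subunits and Rpt6R were called higher at 15 h (18.9% of all tested genes were higher), with a subunit median of 0.37. Without 15 h A the only member called higher was the paralog Rpt3R (19.1% of all tested genes were higher), and the subunit median was 0.07. Gut enzyme genes were at 1.11% of reads in 15 h A, against 0.669% and 0.204% in 6 h A and B, and their part in the result was not tested.

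From 15 h to 25 h limma again called no member (0.134% of all tested genes were called), while 22 had an unadjusted p under 0.05. edgeR called 0 and DESeq2 called 3, for which the shares of all tested genes are not given. All 31 subunits were lower in both 25 h libraries than in both 15 h libraries. How many of all tested genes were lower in this way is not given. The subunits' median log2 change was -0.30, beside 0.01 over all tested genes. The lowest values were -0.40 for Rpn10 and -0.37 for Prosbeta2, and the highest were -0.15 for Rpn9 and -0.25 for Prosbeta1.

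Without 15 h B, 31 subunits and Rpt6R were called lower at 25 h (26.1% of all tested genes were lower) with a median of -0.45. Without 15 h A no member was called lower (0.00966% of all tested genes were), and the median was -0.14. The fat body share of 15.8% and 8.73% in the 25 h libraries, against 0.305% and 1.79% in the 15 h libraries, moved with this comparison, and its part in the result was not tested.

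Between 25 h and 35 h the beta ring subunit Prosbeta5, the gene of the chymotrypsin-like site, differed in sign from the rest of its ring. It had a signal of 5943 and 5746.5 at 35 h, against 5132 and 5042 at 25 h, while at 48 h it had 4529.8 and 4598. The 35 h libraries were thus above the 25 h and the 48 h libraries without overlap. On the authors' scale its log2 change was 0.20 at 35 h against 25 h and -0.36 at 48 h against 35 h.

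No member was called by limma, edgeR or DESeq2 at 35 h against 25 h (3.94% of all tested genes were called by limma) or at 48 h against 35 h (0.392%). An unadjusted p under 0.05 was found for 4 and 2 members. The subunit medians were -0.11 at 35 h against 25 h, with 26 of 31 negative, and 0.05 at 48 h against 35 h, with 23 of 31 positive, beside -0.01 and -0.02 over all tested genes. At 35 h against 25 h, 19 subunits had both 35 h libraries below both 25 h libraries and 2 had them above. For these counts too the shares of all tested genes are not given. Fat body genes took 0.461% and 0.598% of reads at 35 h, against 15.8% and 8.73% at 25 h. Muscle genes took 0.177% and 0.0843% at 35 h, against 0.219% and 0.238% at 25 h, and haemocyte genes 0.305% and 0.153%, against 0.369% and 0.430%. Their part in these values was not tested.

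Without both 15 h libraries limma called 9 members lower and 1 higher at 35 h against 25 h (14.0% of all tested genes were lower and 10.2% higher). The higher one was Prosbeta5 (adjusted p 0.0356), and the lower ones were Prosalpha5, Prosalpha6, Prosbeta3, Prosbeta4, Rpn1, Rpn2, Rpn3, Rpn11 and Rpt4. At 48 h against 35 h the same fit called Prosbeta5 lower (adjusted p 0.0149) and Rpn2, the base scaffold that holds Rpn13, higher (log2 change 0.32, adjusted p 0.0234), beside 10.1% of all tested genes. Rpn2 had 9242 and 8723 at 48 h, against 7328 and 7097 at 35 h, and these groups did not overlap.

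The subunits can also be compared with one another, which takes the scaling of the libraries out. Each library was shifted so that the median of the 31 subunits was the same, a choice made after the values had been seen. On this scale a subunit's range over the 10 libraries was 0.088 to 0.507 in log2, with a median of 0.223, and 20 of 31 ranged over less than 0.25. Prosbeta5 had the largest range: it lay at 0.26 and 0.31 at 35 h, between -0.12 and -0.02 at 6, 15 and 25 h, and at -0.19 and -0.11 at 48 h.

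With this centring and all 10 libraries, limma called 1 member at 48 h against 6 h, Rpt4R, beside 43.1% of all tested genes. By the way Rpt4R passed the filter, its call had to be a lower one. Without both 15 h libraries it called 4 members at 35 h against 25 h (28.9% of all tested genes were called). These were Prosbeta5 (0.33, SE 0.06, adjusted p 0.0112), Rpt1 (0.21, adjusted p 0.0231), Rpt5 (0.22, adjusted p 0.0305) and Prosalpha5 (-0.22, adjusted p 0.0223). At 48 h against 35 h the same fit called Prosbeta5 (-0.44, adjusted p 0.0135) and Rpn2 (0.24, adjusted p 0.0438), beside 8.54% of all tested genes.

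Rpt1 and Rpt5 are ATPases of the base. On the centred scale Rpt1 lay at 0.16 and 0.14 at 35 h and between -0.064 and 0.0036 in the other 8 libraries, so that the 35 h libraries stood apart from all others. Rpt5 lay at 0.10 and 0.17 at 35 h and between -0.10 and 0.03 elsewhere. This was not particular to them: Rpn6 (0.10 and 0.15) and Rpt2 (0.08 and 0.03) also had both 35 h libraries above all others. Rpn1, Rpn2 and Prosalpha5 had both below all others. Prosalpha5 lay between 0.02 and 0.18 up to 25 h and between -0.19 and -0.10 at 35 and 48 h. The 35 h libraries also had the fewest reads (16814685 and 17060414), and the part of depth in these values was not tested.

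Exons of Prosbeta5 (2R, 10819978 to 10821178, plus strand) share 81 bases, 7.11% of their length, with Lsm10 on the opposite strand. Lsm10 had a signal of 77.8 and 80.0 at 35 h, against 49.1 and 52.8 at 25 h. Such overlaps on the opposite strand touch 13 of the 35 members, the largest being 182 bases (12.96%) between Rpt6 and CG1801, which had at most 11.6. Whether the counting used strand is not stated, so reads from these shared bases cannot be told apart.

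**Figure D4:**
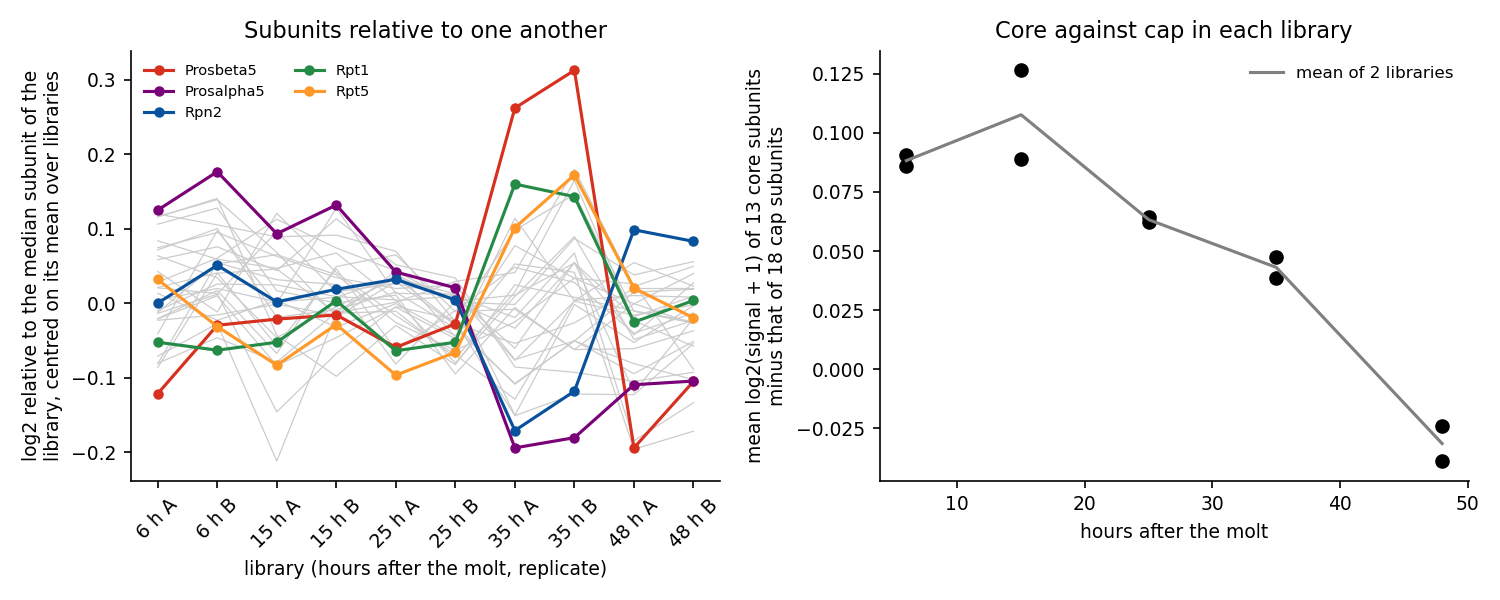
Left: log2 level of each subunit relative to the median of the 31 subunits of its library, centred on its own mean, with 5 named genes in colour and the others in grey. Right: mean log2(signal + 1) of the 13 core subunits minus that of the 18 cap subunits in each library (points) and by time (line). Prosbeta5 stands at 0.26 and 0.31 at 35 h, and the core minus cap value is negative in both 48 h libraries and positive in the other 8.

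The level of the core relative to the cap was lowest in the 48 h libraries. The mean log2(signal + 1) of the core minus that of the cap was 0.0883 ± 0.0033 at 6 h, 0.108 ± 0.027 at 15 h, 0.0633 ± 0.0013 at 25 h, 0.0431 ± 0.0062 at 35 h, then -0.031 ± 0.010 at 48 h (SD, n = 2 at each time). Both 48 h libraries lay below the other 8, and the 6 h and 15 h libraries overlapped. A factor applied to a whole library nearly cancels in this difference, and no test of it was made.

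With centring on the subunit median and without both 15 h libraries, limma called 11 of the 35 members lower at 48 h against 6 h, a share no higher than the 34.5% of all tested genes. With the same centring and all 10 libraries it called no numbered subunit. Of the 11, 7 were core subunits: Prosalpha5 (-0.26, adjusted p 0.00358), Prosbeta6 (-0.23), Prosbeta7 (-0.23), Prosbeta4 (-0.20), Prosbeta3 (-0.18), Prosalpha2 (-0.17) and Prosalpha6 (-0.17). The cap subunits were Rpt4 (-0.20) and Rpn13 (-0.15), and the paralogs were Rpt4R and Rpt6R. Of these Rpt6R passed the filter only through the 6 h libraries and Rpt4R only through these and 25 h A. None of the 3 catalytic genes was among them.

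Over the 5 times together, the moderated F test of limma called 8 members, all of them numbered subunits (38.4% of all tested genes were called). They were Prosalpha5 (adjusted p 0.0123), Prosalpha6, Rpn11, Rpt4, Prosbeta6, Rpn2, Prosbeta3 and Prosbeta7 (adjusted p up to 0.0470). By class they were 5 of 13 core and 3 of 18 cap subunits. Without 15 h A the test called 19 members, beside 67.9% of all tested genes, and without 15 h B 32, beside 75.7%.

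The paralogs were far below their numbered counterparts. Rpt3R, a paralog of the ATPase Rpt3, was the highest, at 3.50% of Rpt3 per kb, and the other 14 paralogs in the table lay at 0.0015% to 0.614% of theirs. The signal of Rpt3R was 90.8 and 103 at 6 h, 141 and 202 at 15 h, 133 and 106 at 25 h, 148 and 148 at 35 h, then 103 and 132 at 48 h. Its lowest 48 h and highest 6 h library both stood at 103, and the log2 change of 0.27 did not pass the threshold (adjusted p 0.416, limma).

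Rpt4R, a paralog of Rpt4 (FBgn0036224; 3L, 11941912 to 11943485, plus strand), had 19 and 15 reads at 6 h, 0 and 4 at 15 h, 16 and 1 at 25 h, 2 and 0 at 35 h, then 0 and 0 at 48 h. It was thus found mainly in both 6 h libraries and in 25 h A, which are also the only libraries in which it reached the filter. Against a floor of 3 reads per library, a signal of 2.01 and 1.79 in 48 h A and B, its level was at least 9.57-fold lower at 48 h than at 6 h. Its adjusted p was 0.0357 (limma), and it entered the test only through the 6 h libraries and 25 h A. A call at 48 h against 6 h could thus only be a lower one.

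Rpt6R, a paralog of Rpt6, had 18 and 16 reads at 6 h, 114 and 5 at 15 h, 6 and 3 at 25 h, 1 and 2 at 35 h, then 2 and 3 at 48 h. A single library, 15 h A, held 114 of its 170 reads, the library with the highest share of gut enzyme reads, whose part in this value was not tested. At 48 h its level was 0.0888 times that at 6 h (exact 95% interval 0.0271 to 0.228, counting error only), with an adjusted p of 0.109 (limma). Rpt6R reached the filter only in 6 h A and B (15.4 and 21.4) and 15 h A (146). A call at 48 h against 6 h could thus only be a lower one, and the interval is no separate support for that direction.

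Rpn13R, a paralog of the receptor Rpn13, had 17 and 18 reads at 6 h, 6 and 7 at 15 h, 4 and 7 at 25 h, 3 and 13 at 35 h, then 15 and 24 at 48 h. In signal the 35 h libraries held both its lowest value, 4.03 in A, and 16.8 in B, above both 48 h libraries (10.0 and 14.3). Its log2 change of -0.60 at 48 h against 6 h did not pass the threshold (adjusted p 0.462, limma).

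The 11 paralogs below the filter (Prosalpha3T, Prosalpha4T1, Prosalpha4T2, Prosalpha6T, Prosbeta2R1, Prosbeta2R2, Prosbeta4R1, Prosbeta4R2, Prosbeta5R1, Prosbeta5R2 and Rpn12R) were seen mostly in the same 3 libraries as Rpt4R. Together they had 42 and 13 reads at 6 h, 1 and 9 at 15 h, 20 and 0 at 25 h, 2 and 0 at 35 h, then 3 and 1 at 48 h. All 11 had a read in 6 h A, 6 in 6 h B and 9 in 25 h A, against 0 to 4 in the other libraries. The 0 reads of 25 h B and 35 h B allow up to 0.119 and 0.176 RPM (reads scaled to the total of the library), counting error only.

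Testis germline and spermatid genes were most often detected in the same 3 libraries. All 16 genes of that list found in the table had a read in 6 h A, 6 h B and 25 h A, against 10 to 14 in the other libraries, and 9 had a read in every library. The list summed to 43.9 and 40.9 RPM at 6 h, 25.7 and 28.6 at 15 h, 23.9 and 22.5 at 25 h, 29.7 and 32.2 at 35 h, then 22.0 and 23.2 at 48 h. On that sum 25 h A lay below both 15 h and both 35 h libraries. Most of these reads were of mia and bol, singled out after their values were seen, with 957 of 1362 in 6 h A and 345 of 568 in 25 h A. The other 14 genes summed to 13.1 and 12.5 RPM in 6 h A and B and 9.40 in 25 h A, against 3.96 to 6.86 in the other 7 libraries. The same 3 libraries thus stood highest only once mia and bol were left out. The meiotic arrest gene aly had 6 and 12 reads at 6 h, 8 in 25 h A and 0 in the other 7 libraries. Not every gene of the list went this way: fzo had 65 and 50 reads at 6 h, 32 in 25 h A and 65 and 84 at 48 h. The part of such cells in the paralog counts was not tested.

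**Figure D5:**
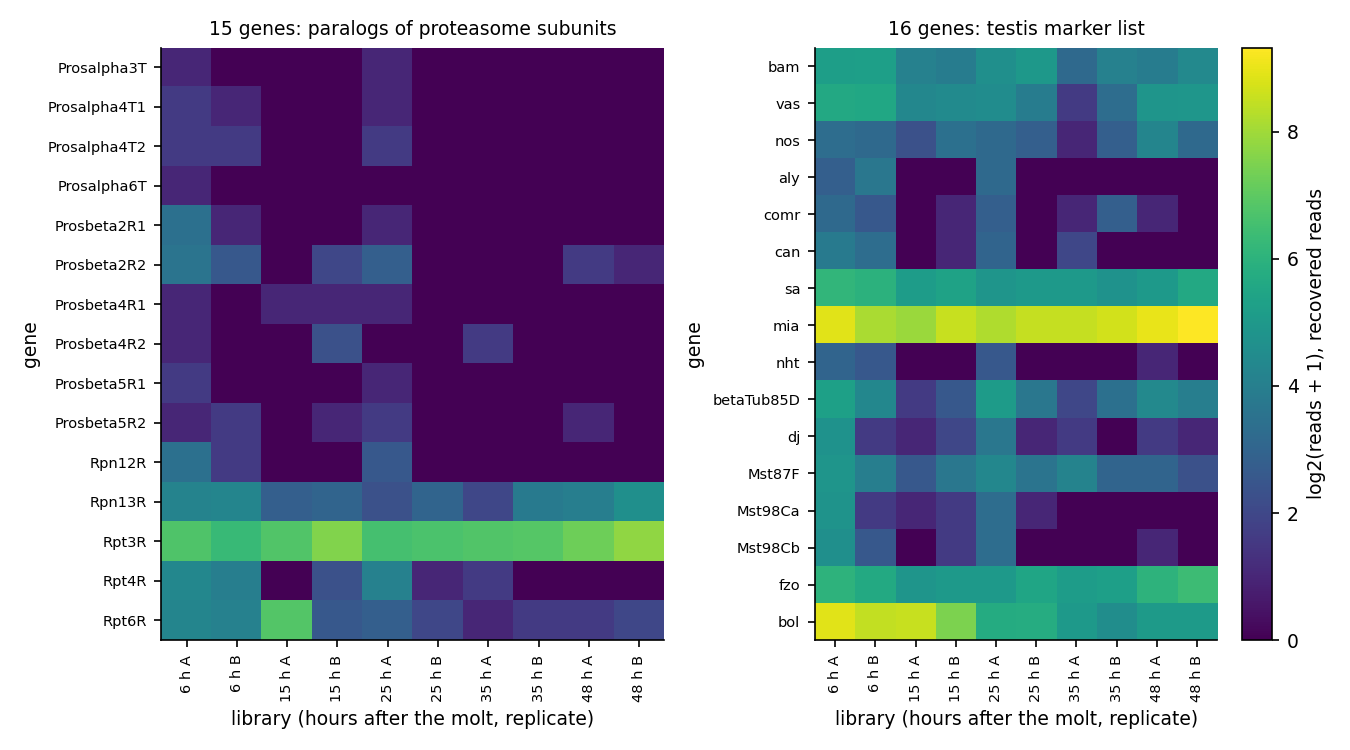
Recovered reads, as log2(reads + 1), of the 15 paralogs in the table (left) and of 16 testis marker genes (right) in each library. The columns of 6 h A, 6 h B and 25 h A hold reads for most paralogs and for all 16 marker genes, and Rpt6R is brightest in 15 h A with 114 reads.

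Genes that assemble or regulate the proteasome were called in both directions, at shares near or below the background. Of 12 listed, 11 were tested at 48 h against 6 h, and limma called 2 higher and 2 lower (beside 22.3% and 26.8% of all tested genes). REG, the activator that caps the core without the base and lid, had 5143.5 and 5395 at 48 h, against 8436 and 8271 at 6 h, a log2 change of -0.66 (adjusted p 0.00235, limma). PI31, a regulator that binds the core, had 1612 and 1668 at 48 h, against 1130.3 and 1072 at 6 h, a log2 change of 0.57 (adjusted p 0.00337, limma). Neither pair of groups overlapped.

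The others were Usp14, a deubiquitinase bound to the proteasome (log2 change -0.42), and maf-S, the partner of the transcription factor cnc (0.64). With a common median limma called 4 of the list higher and 0 lower, beside 29.9% and 20.9% of all tested genes. Of the 11 genes of ubiquitin supply and delivery limma called 0 at 48 h against 6 h on the authors' scale, with log2 changes of -0.27 to 0.48 and 1 unadjusted p under 0.05. edgeR called 1 higher and DESeq2 1 lower, beside 47.5% and 55.3% of all tested genes called in either direction. Without both 15 h libraries limma called 2 higher and 3 lower (31.1% and 37.7% of all tested genes). With a common median limma called 3 higher, beside 29.9% of all tested genes. Pomp, the chaperone of core assembly, had a log2 change of -0.10, near the cap median.

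Of the COP9 signalosome, a complex built like the lid that removes Nedd8 from cullins, 8 genes were tested and 2 were called higher at 48 h against 6 h (CSN7 0.48 and CSN8 0.51), with 0 lower, a share near the 22.3% of all tested genes called higher. CSN8 averaged 1496 ± 38.4 at 48 h and 1053 ± 12.4 at 6 h (SD, n = 2 each). All 8 genes of the CCT chaperonin, which folds actin and tubulin, were called lower at 48 h on the authors' scale (26.8% of all tested genes were), with a median log2 change of -0.62. CCT2 averaged 12702 ± 99.4 at 48 h and 20039 ± 123 at 6 h, while 0 of the 8 were called with a common median (median -0.30), by total reads (-0.31) or with quantile normalization (-0.39).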

How the data were processed

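RNA from wing imaginal discs was measured in 10 libraries, 2 at each of 5 times. Per the submitters' processing notes, the tools included STAR 2.7.10a and featureCounts, with builds dm6 and BDGP6 named, while strandedness, normalization tool and gene filter are not given in the sources used here. The deposited values are a signal, that is, counts per gene scaled by the authors with a size factor for each library. Whole reads were recovered within 0.001 for 100% of the values. The filter asked for a signal of 10 or more in 2 or more libraries, which kept 10453 genes and removed 2588.

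Log2(signal + 1) was fitted with limma 3.58.1 (R 4.3.3; trend over intensity; a mean for each time; 5 residual degrees of freedom; two-sided tests). A pseudocount of 1 understates changes of low genes. edgeR 4.0.16 and DESeq2 1.42.0 on the recovered reads, other scalings, other filters and leaving out libraries were alternatives. The script was tested on simulated data. Coordinates and exon lengths come from the Ensembl BDGP6.54 annotation. The members and lists were chosen with earlier results of these data known. Genes were named by role (catalytic subunits, ATPases, ubiquitin receptors, Rpn11, paralogs) and as the core and cap subunits with the largest change each way; in related lists, by the lowest adjusted p, and those in counts of 5 or fewer.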

Additional observations from a re-analysis of the deposited data

How the results depend on the processing

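The 3 members called at 48 h against 6 h became 1 with quantile normalization, without the intensity trend, with scaling by total reads and with centring on the subunits, 15 with only the 2 times compared, 16 without both 15 h libraries and 11 with centring and without both; leaving out 1 library gave 0 to 16. Leaving out 1 library gave 0 to 29 at 15 h against 6 h, 0 to 32 at 25 h against 15 h (DESeq2 3), 0 to 10 at 35 h against 25 h and 0 to 2 at 48 h against 35 h. Without both 15 h libraries the calls were 10 at 35 h against 25 h and 2 at 48 h against 35 h, with centring also 4 and 2, and with only the 2 times compared 2 at 48 h against 35 h. The 8 of the F test became 0 with quantile normalization and by total reads, 1 with a common median and with centring, 2 without the trend, 5 without a filter and 21 with DESeq2, and 0 to 32 when 1 library was left out; it was not run with only the 2 times compared or without both 15 h libraries. The cause of these moves was not tested. Scaling by total reads and centring were chosen after seeing the data.

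The letters A and B gave no clear sign of pairing: correlations between times of the A minus B differences were -0.059 to 0.161. Such values cannot settle whether libraries of the same letter shared a culture or a day. With them as a replicate block, limma called 3 members at 48 h against 6 h and 8 by the F test.

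Signs at 48 h against 6 h turned positive with a common median for Prosbeta1 (0.24), Prosbeta2 (0.17), Prosbeta5 (0.15), Rpn1 (0.16), Rpn10 (0.22), Rpn11 (0.17), Rpn13 (0.0802), Rpt1 (0.27), Rpt2 (0.22), Rpt3 (0.25), Rpt4 (0.025), Rpt5 (0.23) and Rpt6 (0.21). By total reads these were 0.23 for Prosbeta1, 0.16 for Prosbeta2, 0.14 for Prosbeta5, 0.15 for Rpn1, 0.21 for Rpn10, 0.16 for Rpn11, 0.069 for Rpn13, 0.26 for Rpt1, 0.21 for Rpt2, 0.24 for Rpt3, 0.014 for Rpt4, 0.21 for Rpt5 and 0.20 for Rpt6. Quantile normalization gave 0.0069 for Rpn10, 1.14 for Rpn13R, 0.057 for Rpt1, 0.013 for Rpt2, 0.004 for Rpt3 and 0.026 for Rpt5. TMM factors and edgeR gave 0.0045 and 0.0046 for Prosbeta1, 0.0365 and 0.0365 for Rpt1, and 0.0109 and 0.0108 for Rpt3. Centring, with or without the 15 h libraries, gave 0.015 for Prosbeta1, 0.047 for Rpt1, 0.021 for Rpt3 and 0.0001 for Rpt5. Rpn5 ranged from -0.011 to 0.043 when 1 library was left out. Over 19 genes and all alternatives, 402 values kept sign and side of the threshold, 25 passed it newly, 16 lost it and 48 turned sign. Depth limits the 3 paralogs with few reads (Rpt4R, Rpt6R, Rpn13R).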
